A study of Mus musculus with 4 samples.

Results

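The 9 genes described here (Lck, Fyn, Zap70, Lat, Lcp2, Plcg1, Txk, Vav1 and Themis) encode the kinases, adaptors and enzymes that act first when the T-cell receptor is engaged. They were taken by gene symbol from a list that was chosen with earlier results of these data known. All 9 were found among the 54752 genes counted. RNA was measured in 4 libraries on day 3 of culture, 2 from WT and 2 from Mek1/2-tKO cells. The Mek1/2-tKO mice (C57BL/6 background) carried homozygous floxed alleles of both MEK genes (Map2k2 fl/fl and Map2k1 fl/fl) and Cd4-Cre+, a Cre that the Cd4 promoter drives and that also acts in the precursors of CD8 T cells. The exact alleles of the WT mice and the age of the mice behind these libraries are not given in the sources used here. In both genotypes naïve CD4+ T cells of the spleen were stimulated with anti-CD3 and anti-CD28 under T follicular helper (Tfh) conditions, which consisted of IL-6 and neutralising antibodies to TGF-β, IL-4, IFN-γ and IL-2, and viable cells were sorted again before RNA was taken. Nothing states that the 2 libraries of a genotype came from separate mice, so the p values measure the spread between these libraries.

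As background, engagement of the receptor lets the Src family kinases Lck and Fyn phosphorylate the signalling motifs of the CD3 chains, to which the kinase ZAP-70 (Zap70) then binds. ZAP-70 phosphorylates the membrane adaptor LAT and the cytosolic adaptor SLP-76 (Lcp2), and on this scaffold gather phospholipase C gamma 1 (Plcg1), the exchange factor Vav1 and Tec family kinases such as Txk, while Themis tunes the strength of the signal. The phospholipase makes the messengers that open calcium stores and that bring Ras, RAF, MEK1/2 and ERK1/2 into play, so that the targeted kinases lie downstream of these genes. RNA levels say nothing on the phosphorylation of these proteins.

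The libraries held 16330802 to 18931090 counts. Map2k1 fell to 55.1% of its WT level (log2 fold change -0.86, SE 0.08), and Map2k2 had a log2 fold change of 0.15 (SE 0.08) that did not pass the test. A count over a whole gene takes in transcripts with and without the deleted exons, and the share of each was not tested. Against the label of CD4+ T cells, Cd4 stood at 297 and 289 CPM (counts per 1000000, scaled by edgeR's TMM factors) in WT but at 18.8 and 25.1 CPM in Mek1/2-tKO, and Cd8a rose from 33.2 ± 3.14 to 139 ± 12.1 CPM (SD, n = 2). Of 12 B-lineage markers 11 rose, and their summed level was 1428 to 1457 CPM in WT and 7127 to 7161 CPM in Mek1/2-tKO, led by Ighm at 3068 and 3095 CPM in the latter, with Cd79a at 56.8 and 59.0 against 630.0 and 614 CPM. All 8 NK-cell and gamma-delta T-cell markers that were matched out of 10 rose (72.2 to 73.8 CPM summed in WT, 522 to 569 CPM in Mek1/2-tKO), among them Trdc and Ncr1, although 2 of the 8 passed the filter on low counts only through the Mek1/2-tKO libraries. Of 10 myeloid markers 4 were too low to be tested, and the other 6, some of which passed the filter through the Mek1/2-tKO libraries alone, rose at a low level. All 10 summed to 4.36 to 4.77 CPM in WT and 21.2 to 27.0 CPM in Mek1/2-tKO, with Lyz2 at 8 and 12 counts and Adgre1 and S100a8 at 0 counts in both WT libraries. The part of these differences in the results that follow was not tested, and fewer cells of a type and less RNA per cell cannot be told apart in bulk RNA.

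Of the 9 genes, 4 fell past both thresholds in Mek1/2-tKO cells (Plcg1, Zap70, Lcp2 and Fyn), 1 rose (Txk) and 4 were not called (Lck, Lat, Themis and Vav1). A call needed an edgeR quasi-likelihood p, adjusted over 14330 genes, under 0.05 together with a change of 1.5 times or more. Of all genes tested, 16.4% were called lower and 19.3% higher, or 35.8% either way. By the adjusted p alone 7 of the 9 genes were lower and 1 higher, where 27.2% of all genes were lower and 27.8% higher. The median log2 fold change of the 9 genes was -0.55, beside 0.02 over all genes tested. The libraries of the genotypes did not overlap for any of the 9, which was also so for 38.8% of all genes in the lower direction and 39.5% in the higher. Under DESeq2 the same counts of 4 lower and 1 higher were found.

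**Figure D1:**
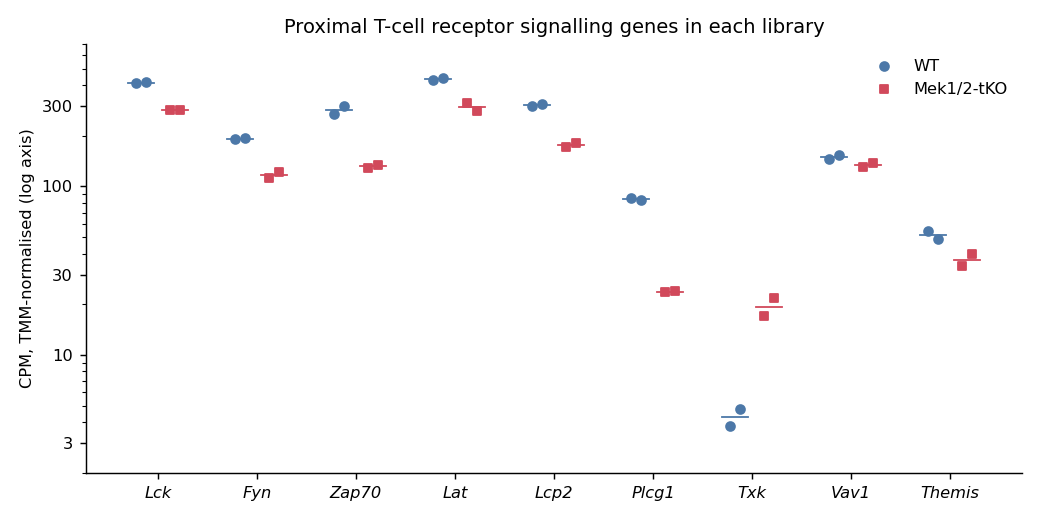
Normalised counts (CPM, log axis) of the 9 receptor-proximal genes, with circles for the 2 WT libraries, squares for the 2 Mek1/2-tKO libraries and a line at each mean. Plcg1 stands at 85.6 and 83.5 CPM in WT and at 23.8 and 23.9 CPM in Mek1/2-tKO, and Txk is the only gene with its squares above its circles.

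The Src family kinases open the cascade. Lck, the kinase carried by the CD4 and CD8 co-receptors (ENSMUSG00000000409.14, chromosome 4, 129548344 to 129573641 in GRCm38), had 410.5 and 415 CPM in WT and 283 and 284 CPM in Mek1/2-tKO. The Mek1/2-tKO libraries were thus at 68.7% of WT, with a log2 fold change of -0.54 (SE 0.07, edgeR quasi-likelihood adjusted p = 2.39e-05), short of the fold change threshold. With scaling by library size alone the log2 fold change was -0.63 and passed, where the median over all genes tested was -0.07. Fyn, the second Src family kinase of T cells (ENSMUSG00000019843.14, chromosome 10, 39368855 to 39565381), fell from 192 and 193 CPM to 112 and 122 CPM, or to 61.0% of WT (log2 fold change -0.71, SE 0.08, edgeR quasi-likelihood adjusted p = 6.82e-06). Both Mek1/2-tKO libraries were low for both kinases. The ratio of Lck to Fyn per kilobase of exon was 3.19 and 3.21 in WT and 3.76 and 3.45 in Mek1/2-tKO.

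Zap70, which docks on the phosphorylated CD3 chains (ENSMUSG00000026117.10, chromosome 1, 36761798 to 36782818), fell from 5278 and 5784 counts to 2001 and 2522 counts, or from 285 ± 20.6 to 132 ± 3.58 CPM (SD, n = 2). Its level was 46.2% of WT, with a log2 fold change of -1.11 (SE 0.08, edgeR quasi-likelihood adjusted p = 8.35e-08). The decrease was larger than the gap between the WT libraries, which were the more widely spaced pair of this gene.

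Among the adaptors, Lat, the membrane scaffold (ENSMUSG00000030742.7, chromosome 7, 126363824 to 126369570), had 428 and 438 CPM in WT and 311 and 280.0 CPM in Mek1/2-tKO. Its log2 fold change of -0.55 (SE 0.08, edgeR quasi-likelihood adjusted p = 4.11e-05) was short of the fold change needed, and Lat was called with scaling by library size (-0.64) and without Mek1/2-tKO replicate 1 (-0.63). Lcp2, whose product SLP-76 joins Vav1 and phospholipase C to the scaffold (ENSMUSG00000002699.13, chromosome 11, 34046920 to 34092295), fell from 299 and 310.0 CPM to 172 and 181 CPM. This was 58.1% of WT, with a log2 fold change of -0.78 (SE 0.07, edgeR quasi-likelihood adjusted p = 1.32e-06). An antisense gene overlaps 6.32% of the Lcp2 exon bases, and whether the counting used the strand is not given in the sources used here.

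Plcg1, the phospholipase that turns the assembled complex into calcium and diacylglycerol signals (ENSMUSG00000016933.17, chromosome 2, 160731300 to 160775760), had the largest decrease of the 9. It fell from 85.6 and 83.5 CPM to 23.8 and 23.9 CPM, or to 28.2% of WT (log2 fold change -1.83, SE 0.10, edgeR quasi-likelihood adjusted p = 8.11e-09). Without each library in turn the log2 fold change stayed between -1.85 and -1.81. Antisense genes overlap 6.68% of its exon bases.

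Vav1, a guanine nucleotide exchange factor (ENSMUSG00000034116.17, chromosome 17, 57279100 to 57328031), had 146 and 155 CPM in WT and 130.4 and 139 CPM in Mek1/2-tKO. The log2 fold change of -0.16 (SE 0.08, edgeR quasi-likelihood adjusted p = 0.117) passed neither threshold, and its adjusted p lay between 0.0277 and 0.184 over the alternatives that kept all libraries (edgeR and DESeq2). Themis, which binds the adaptor GRB2 and sets signal strength during thymic selection (ENSMUSG00000049109.15, chromosome 10, 28668360 to 28883818), had 54.1 and 48.8 CPM in WT and 33.6 and 39.7 CPM in Mek1/2-tKO. Its log2 fold change was -0.49 (SE 0.12, edgeR quasi-likelihood adjusted p = 0.00319), under the fold change threshold. Without Mek1/2-tKO replicate 2, the higher of that pair, it was -0.62 and was called.

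Txk, a Tec family kinase also known as Rlk (ENSMUSG00000054892.14, chromosome 5, 72695978 to 72752777), went the other way. It rose from 3.80 and 4.77 CPM to 17.1 and 21.7 CPM, on 74 and 92 counts in WT and 264 and 408 counts in Mek1/2-tKO. The level was 4.53 times that of WT, with a log2 fold change of 2.18 (SE 0.21, edgeR quasi-likelihood adjusted p = 1.42e-06). Without each library in turn the log2 fold change ranged from 1.98 to 2.35.

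The promoters of the genes with the largest decrease and the only increase, and of both Src family kinases, are shown to let the reader set their sequences beside these values. They are the 250 bases before the RefSeq start nearest to the deposited 5′ end of each gene (GRCm38.p6), written 5′ to 3′ on the strand of the gene, with matches to a searched motif in capitals. They lie at chr2:160731060-160731309 (Plcg1, plus strand), chr5:72752778-72753027 (Txk, minus strand), chr4:129573642-129573891 (Lck, minus strand) and chr10:39369549-39369798 (Fyn, plus strand).
Plcg1: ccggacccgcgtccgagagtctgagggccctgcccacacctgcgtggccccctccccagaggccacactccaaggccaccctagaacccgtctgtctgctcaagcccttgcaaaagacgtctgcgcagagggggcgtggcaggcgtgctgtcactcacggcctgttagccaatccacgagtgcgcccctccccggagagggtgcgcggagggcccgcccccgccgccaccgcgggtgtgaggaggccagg
Txk: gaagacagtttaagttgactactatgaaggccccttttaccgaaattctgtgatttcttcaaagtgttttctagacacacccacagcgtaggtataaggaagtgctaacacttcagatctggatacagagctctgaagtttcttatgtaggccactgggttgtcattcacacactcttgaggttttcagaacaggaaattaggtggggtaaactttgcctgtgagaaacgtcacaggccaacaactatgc
Lck: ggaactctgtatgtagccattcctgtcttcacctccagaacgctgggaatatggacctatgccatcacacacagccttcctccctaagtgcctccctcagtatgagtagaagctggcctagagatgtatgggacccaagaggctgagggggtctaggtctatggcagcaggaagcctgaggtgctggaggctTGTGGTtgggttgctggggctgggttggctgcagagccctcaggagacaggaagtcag
Fyn: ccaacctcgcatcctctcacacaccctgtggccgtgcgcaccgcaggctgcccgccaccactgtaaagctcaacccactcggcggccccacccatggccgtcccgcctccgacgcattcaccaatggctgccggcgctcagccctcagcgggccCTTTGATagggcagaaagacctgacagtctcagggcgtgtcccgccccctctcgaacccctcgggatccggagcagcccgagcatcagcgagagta
The Plcg1 window held 71.2% G and C and the Txk window 42.8%, beside a median of 52.4% (quartiles 45.2% and 61.2%) over 32851 RefSeq windows. Both strands of the windows of all 9 genes were searched for CCGGAAG (ETS), GGAA and GAAA with 2 bases between (ETS with IRF), GAAA and GAAA with 2 bases between (IRF, which shares letters with the former), TGANTCA (AP-1), TGTGGT (RUNX) and CTTTGAT (TCF and LEF). Only 2 matches were found, a RUNX motif 58 to 53 bases before the start of Lck and a TCF and LEF motif 96 to 90 bases before that of Fyn. Over all windows the RUNX motif was present in 14.0% and the TCF and LEF motif in 3.21%, and the other 4, which none of the 9 windows held, in 6.91%, 2.30%, 2.98% and 6.75% in the order given. The start used for Fyn lies 944 bases from the deposited 5′ end, and Lck, Zap70, Txk and Themis have further RefSeq starts that were not searched.

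To compare levels between genes, CPM were divided by the exon length of each gene in kilobases. In WT the order was Lat (157 ± 2.51 CPM per kb, SD, n = 2), Lck (141 ± 1.18), Zap70 (95.4 ± 6.89), Lcp2 (68.2 ± 1.82), Fyn (44.1 ± 0.155), Vav1 (40.7 ± 1.66), Plcg1 (10.8 ± 0.189), Themis (4.40 ± 0.320) and Txk (0.391 ± 0.0629), and no neighbours in this order overlapped. Txk and Themis are counted over 10955 and 11682 exon bases, against 2767 to 7857 for the other 7 genes, so that their levels per kilobase depend most on the annotated length. In Mek1/2-tKO the first 4 places were the same, with Lat at 107 ± 7.90, Lck at 96.8 ± 0.104, Zap70 at 44.0 ± 1.19 and Lcp2 at 39.7 ± 1.41 CPM per kb. Vav1 (36.5 ± 1.58) then stood above Fyn (26.9 ± 1.67). Themis (3.14 ± 0.368) and Plcg1 (3.03 ± 0.00788) overlapped, and Txk was at 1.77 ± 0.302 CPM per kb. The highest of the 9 genes, Lat, exceeded the lowest, Txk, 446 and 363 times in WT and 72.2 and 51.0 times in Mek1/2-tKO. The narrower span in the latter rests on these 2 genes, as Lat fell and Txk rose, and does not describe the other 7. Summed over the 9 genes, the level was 552 and 571 CPM per kb in WT and 359 and 358 CPM per kb in Mek1/2-tKO.

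The receptor chains were read beside these genes because the proteins work on them. The chains did not move as a block. Cd3e (log2 fold change -1.06, SE 0.10), Cd247 (-0.79, SE 0.08) and Trac (-0.98, SE 0.09) fell, while Cd3d (0.20, SE 0.10) and Cd3g (0.24, SE 0.08) were not called. The constant genes of the receptor beta chain, Trbc1 (0.16, SE 0.09) and Trbc2 (-0.03, SE 0.08), were not called either. Cd3d, Cd3g, Trbc1 and Trbc2 were named after their values were seen. Antisense genes overlap 56.4% of the exon bases of Cd247, so that its value is uncertain. Of 12 genes, namely receptor chains, the co-receptors Cd4, Cd8a and Cd8b1, and Cd2 and Cd28, 6 were lower and 2 higher. Of all genes 16.4% were lower and 19.3% higher. Cd2 and Cd28, which are neither receptor chains nor co-receptors, were among the 6 lower genes. A ratio of genes in a library does not depend on how the library was scaled. Relative to Cd3e, Zap70 had a ratio per kilobase of 4.02 and 4.46 in WT and of 4.01 and 4.15 in Mek1/2-tKO, and these overlapped. The log2 ratio of Plcg1 to Cd3e was lower in Mek1/2-tKO by 0.77, from 0.484 and 0.473 to 0.281 and 0.281 on the linear scale, whereas Lck (6.23 and 6.31 against 8.98 and 8.95) and Vav1 (1.76 and 1.87 against 3.28 and 3.48) had higher ratios. Among Cd3d, Cd3e, Cd3g and Cd247, Cd3d had the highest level, at 94.3 and 102 CPM per kb in WT and 125 and 101 in Mek1/2-tKO. Cd3e had 22.5 and 22.5 CPM per kb in WT and 10.8 and 10.8 in Mek1/2-tKO, so that a sum of these chains weighs Cd3d most. Relative to the summed level of Cd3d, Cd3e, Cd3g and Cd247, the direction turned for Lck (0.740 and 0.722 in WT, 0.479 and 0.554 in Mek1/2-tKO). It turned likewise for Lat (a difference in log2 ratio of 0.51 to Cd3e and of -0.52 to the sum), Lcp2 (0.28 and -0.75), Fyn (0.34 and -0.68) and Themis (0.57 and -0.46). Zap70 was lower relative to the sum without overlap (0.478 and 0.511 against 0.214 and 0.257), and Vav1 overlapped (0.209 and 0.214 against 0.175 and 0.215). Plcg1 was lower (0.0575 and 0.0541 against 0.0150 and 0.0174) and Txk higher (0.00183 and 0.00222 against 0.00770 and 0.0113) by either measure. No test was run on these ratios.

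**Figure D2:**
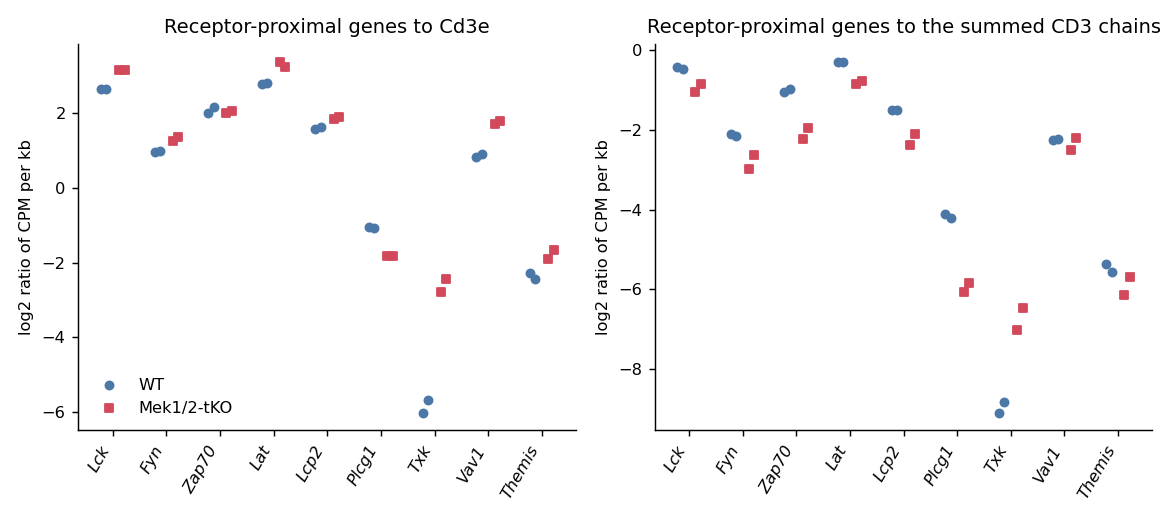
Log2 ratio of each of the 9 genes to Cd3e (left) and to the summed CD3 chains (right), from CPM per kilobase of exon in each library, with circles for WT and squares for Mek1/2-tKO. Zap70 overlaps between the genotypes on the left and Vav1 on the right, while Plcg1 is lower and Txk higher in Mek1/2-tKO in both.

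Most of the 9 genes have relatives of the same family that other blood cells use for their own receptors, such as Lyn, Blk, Syk, Btk, Blnk and Plcg2 in B cells and Fgr in myeloid cells. A list of 18 such relatives was read in the same fit. Of the 17 that were tested, 11 rose and 2 fell, with a median log2 fold change of 1.43, where 19.3% of all genes rose and 16.4% fell. Bmx, the gene that was not tested, had 0 counts in all 4 libraries, which allows up to 3 counts in each. The B-lineage, NK-cell and myeloid markers given above rose in the same libraries.

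In the Src family, Blk (log2 fold change 2.76, SE 0.12) and Lyn (1.99, SE 0.10) rose. Blk, the B-lymphoid kinase, went from 14.9 and 17.8 CPM to 105 and 116 CPM. Fgr (0.57, SE 0.22), Yes1 (0.72, SE 0.36) and Src (1.13, SE 0.56) were not called. Without Mek1/2-tKO replicate 1, Fgr (0.77) and Src (1.68) were called, and Src was at 0.13 without replicate 2 of that genotype. Fgr (0.59) was also called among genes with at least 10 counts in every library. Taken as shares of the family's summed level per kilobase, Lck made up 69.7% and 69.4% in WT and 47.1% and 44.9% in Mek1/2-tKO. Fyn went from 21.9% and 21.6% to 12.53% and 13.02%, and Blk from 2.74% and 3.24% to 18.92% and 19.98%. The summed level of the family was 201 and 204 CPM per kb in WT and 205 and 216 CPM per kb in Mek1/2-tKO.

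Syk, the relative of Zap70 that serves the B-cell receptor and Fc receptors, rose from 56.6 and 55.2 to 147 and 155 CPM (log2 fold change 1.43, SE 0.09). Zap70 made up 93.7% and 94.4% of the pair in WT and 73.3% and 73.1% in Mek1/2-tKO. The adaptor Lat2 rose by 2.55 on the log2 scale (SE 0.13), although other-strand Rfc2 shares 36.3% of its exon bases, and the share of Lat in that pair was 97.8% and 97.9% in WT and 85.1% and 83.6% in Mek1/2-tKO. Blnk, the SLP-76 relative of B cells, rose by 1.67 (SE 0.12), and Lcp2 went from 92.6% and 93.6% of its family to 71.1% and 69.0%. Clnk was called higher on 4 and 2 counts in WT and 34 and 34 counts in Mek1/2-tKO, so that it passed the filter on low counts through the latter alone. Among genes with at least 10 counts in every library, where Clnk was not tested, 11 relatives rose and 2 fell.

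The phospholipases moved in opposite directions. Plcg2 rose from 41.1 and 43.3 to 80.4 and 95.0 CPM (log2 fold change 1.06, SE 0.11) as Plcg1 fell. Plcg1 made up 53.3% and 51.3% of their summed level per kilobase in WT and 13.9% and 12.1% in Mek1/2-tKO, while that sum was 20.4 and 20.7 against 21.7 and 25.1 CPM per kb. In the Tec family, Btk (log2 fold change 2.00, SE 0.13) and Tec (1.53, SE 0.18) rose, as Txk did. Not all members of this family are reported here, so that these values do not give the direction of the whole family. Btk, the Tec kinase of B cells, went from 18.0 and 15.0 to 59.9 and 71.8 CPM.

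In the Vav family, Vav1 made up 79.7% and 81.1% in WT and 81.4% and 79.9% in Mek1/2-tKO, and these overlapped. Vav2 had a log2 fold change of 0.00 (SE 0.11), with overlapping libraries, and Vav3 fell by 0.82 on the log2 scale (SE 0.17). Themis2, which B cells and myeloid cells express, rose by 0.75 (SE 0.11), and Themis made up 32.8% and 31.1% of the pair in WT and 15.1% and 18.1% in Mek1/2-tKO. The differences between a gene's change and that of its relative were not tested.

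**Figure D3:**
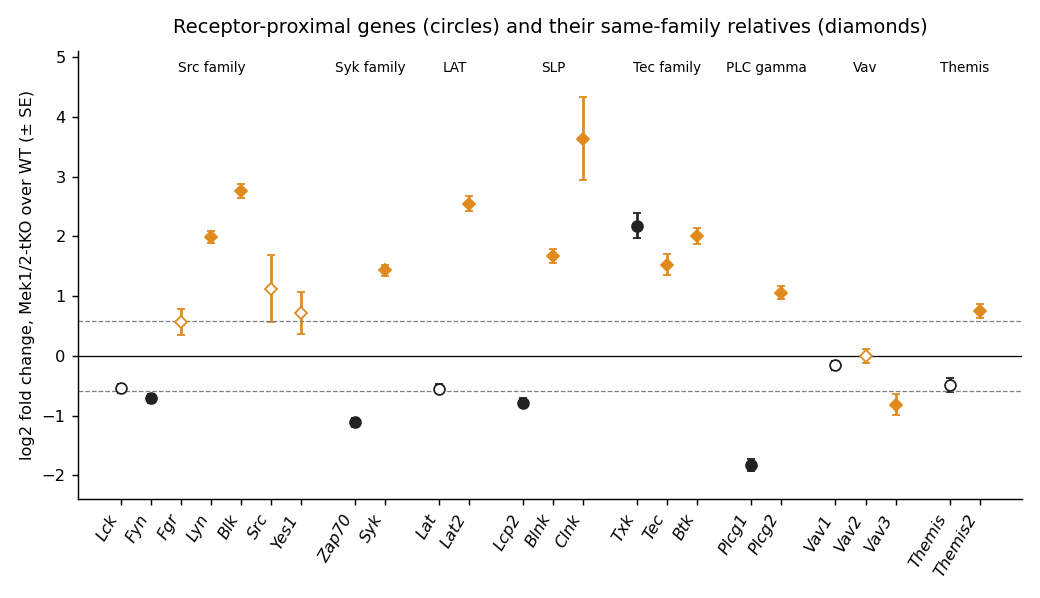
Log2 fold changes (Mek1/2-tKO over WT) with standard errors for the 9 receptor-proximal genes (black circles) and their relatives (orange diamonds), grouped by family. Filled symbols passed both thresholds, and dashed lines mark a fold change of 1.5. Apart from Vav3, the filled diamonds drawn lie above 0, where Txk is the only filled circle.

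**Figure D4:**
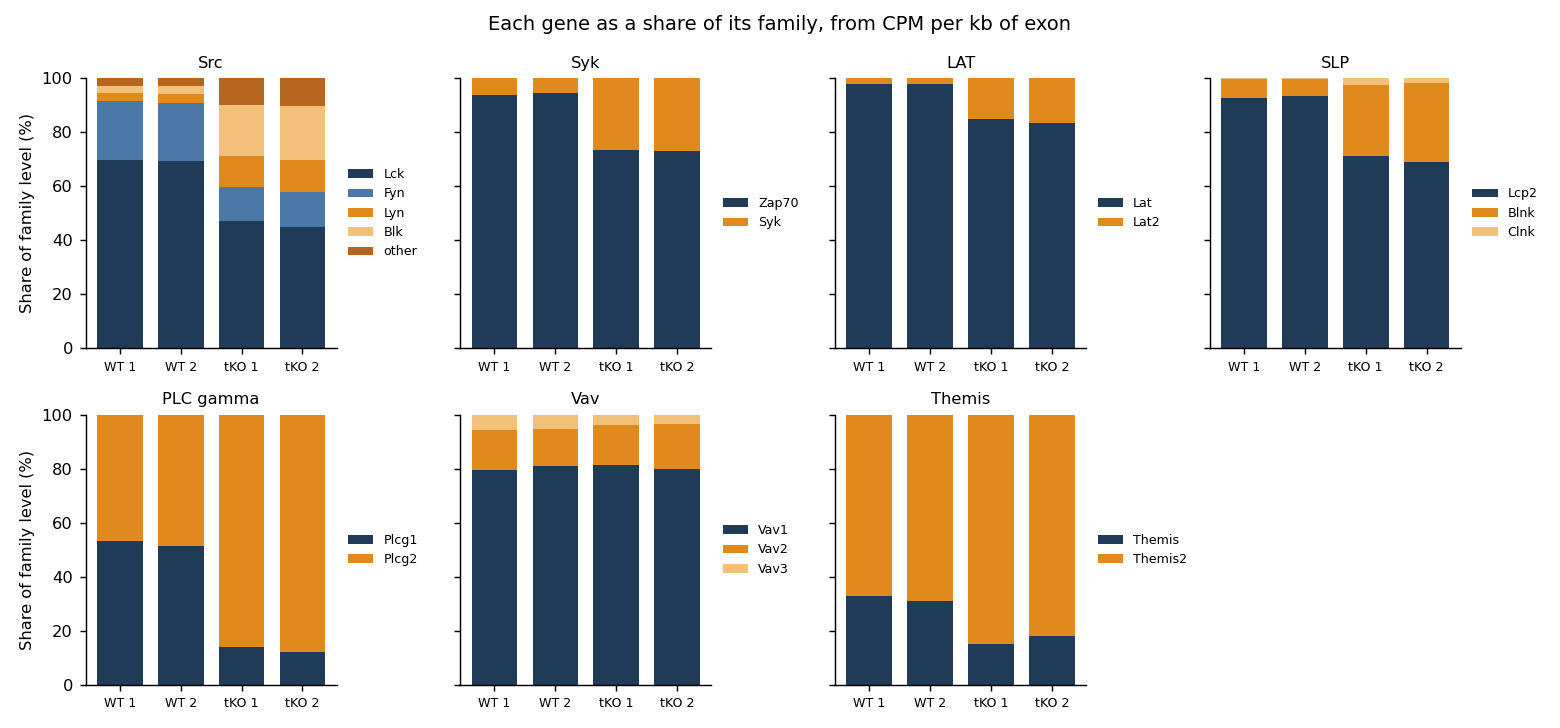
Share of each gene in the summed level of its family (percent, from CPM per kilobase of exon) in each library, for 7 families, with the receptor-proximal genes in blue and their relatives in orange and brown, with the Src family relatives other than Lyn and Blk summed as other. The blue part of the Src family goes from 91.5% and 91.0% in WT to 59.7% and 57.9% in Mek1/2-tKO, while that of the Vav family stays between 79.7% and 81.4%.

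Genes that act beside or just after these 9 were read from a list of 26, all of them tested. Past both thresholds 10 fell and 1 rose, or 38.5% and 3.85% of the list, beside 16.4% and 19.3% of all genes. The median of the list was -0.18. The largest decreases were those of Fyb, the adaptor that links SLP-76 to integrins (log2 fold change -1.23, SE 0.12), Sos2, a Ras exchange factor (-1.12, SE 0.18), and Wipf1, the partner of the actin regulator WASP (-1.09, SE 0.09). Sos1, Itpr1, Stim1, Rasgrp1, Prkcq and Itpkb, named after their values were seen, fell as well. Rasgrp1, the exchange factor that carries diacylglycerol signals to Ras and so towards MEK1/2, had 77.6 and 74.0 CPM in WT and 39.9 and 46.8 CPM in Mek1/2-tKO (log2 fold change -0.81, SE 0.11). Itpr1, a receptor that releases stored calcium, fell by 1.02 (SE 0.11) and Stim1, the sensor of those stores, by 0.83 (SE 0.11). The count of 1 that rose became 0 with library size scaling and without WT replicate 1, and 2 without WT replicate 2. The adaptors Grb2 (0.20, SE 0.08), Grap2 (0.10, SE 0.10) and Nck2 (0.00, SE 0.15), also named after their values were seen, were not called.

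The third list held 25 phosphatases, ligases, adaptors and surface proteins that mostly restrain the pathway. Of its 24 tested genes 8 fell and 5 rose, with a median of -0.21, where 16.4% of all genes fell and 19.3% rose. Trat1, a transmembrane adaptor that travels with the receptor, fell from 24.7 and 20.7 CPM to 4.00 and 3.35 CPM (log2 fold change -2.63, SE 0.20). Cd5, an inhibitory surface receptor of T cells and some B cells, fell by 1.55 (SE 0.08) and the ubiquitin ligase Cblb by 1.48 (SE 0.11). Lax1, a LAT-like adaptor of T and B cells that dampens antigen receptor signals, rose from 23.6 and 26.5 CPM to 164 and 164 CPM (log2 fold change 2.71, SE 0.10). The phosphatase Ptprj rose by 1.33 (SE 0.13) and the adaptor Dok1 by 0.81 (SE 0.11). Csk, the kinase that holds Lck and Fyn in check, had a log2 fold change of -0.18 (SE 0.08) and was not called, and this gene was chosen after its value was seen. Lime1 was not tested, with 1 to 3 counts per library. The gene Zgpat shares 92.5% of the Lime1 exon bases on the same strand, so that this low count is uncertain.

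**Figure D5:**
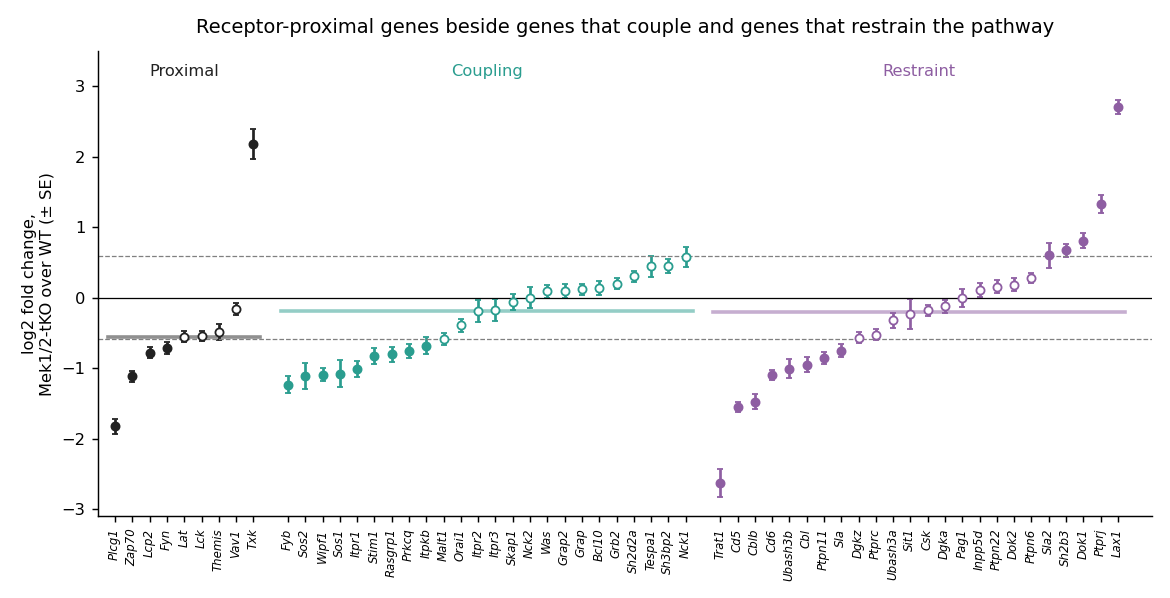
Log2 fold changes (Mek1/2-tKO over WT) with standard errors for the 9 receptor-proximal genes, coupling genes and the 24 tested restraint genes, each sorted by value. Filled circles passed both thresholds, dashed lines mark a fold change of 1.5 and thick lines mark the medians of the whole lists at -0.55, -0.18 and -0.21.

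A comparison over 9605 genes, those averaging 3 or more in log2 CPM, gave the closest likenesses. The genes with a pattern nearest to Plcg1 over the 4 libraries were Pde4d, Slc7a3 and Galnt6, at Euclidean distances of 0.062, 0.081 and 0.083 on the log2 scale after centring. Their log2 fold changes were -1.87, -1.81 and -1.87. Nearest to Txk were Rasa3 (distance 0.112), Rogdi (0.144) and Hsd17b11 (0.145), with log2 fold changes of 2.01, 2.04 and 2.03. The distances and the fold changes come from the same 4 libraries, so fold changes near those of Plcg1 and Txk follow from the selection.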

How the data were processed

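The authors trimmed read pairs of a stranded mRNA kit with Trimmomatic 0.36, mapped them to GRCm38 and counted uniquely mapped reads per gene with featureCounts (Subread 1.5.1), and the deposited counts carry no normalization. Neither the annotation release nor the strand setting used in counting is given in the sources used here. Symbols were matched to 54723 of 54752 identifiers. The counts were fitted in R 4.3.3 by the robust quasi-likelihood method of edgeR 4.0.16 after filterByExpr and TMM scaling, and p values were adjusted over 14330 genes by Benjamini-Hochberg. Calls needed a change of 1.5 times and an adjusted p below 0.05, the thresholds of the study. Levels per kilobase used the exon length in the files. A count of 0 allows up to 3 counts, which covers counting error only. The fit was tested on simulated counts with known changes. Each library was left out in turn, and further alternatives were a replicate block, scaling by library size or by DESeq2 factors, DESeq2 1.42.0 itself, edgeR's likelihood-ratio test, no filter, a filter of 10 counts in each library, and other thresholds.

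The 9 genes and the lists of relatives, coupling genes, restraint genes and cell markers were chosen with earlier results of these data known. Named by rule were the 9 genes, Map2k1, Map2k2, the tested relatives, 10 markers, up to 3 called genes at each end of the coupling and restraint lists, and the 3 genes nearest in pattern to the called genes with the highest and lowest log2 fold change. Some genes of the lists stay in the counts and medians, but their own values are not reported here. No pair of replicates was a copy of the other, since the chi-square per gene was 4.19 in WT and 10.9 in Mek1/2-tKO. Promoter sequences came from RefSeq (GRCm38.p6), which held all 9 genes.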

Additional observations from a re-analysis of the deposited data

How the results depend on the processing

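Plcg1, Zap70 and Txk stayed called and Vav1 stayed uncalled, each in the same direction, under every alternative run. The edgeR adjusted p of Vav1 passed its own threshold with library size alone (0.0277) and was 0.0160 without Mek1/2-tKO replicate 2. Under the alternatives run, no called value of the 9 genes changed sign. With library size alone, Lck (-0.63) and Lat (-0.64) were called. That scaling also moved the median log2 fold change over all 14330 genes tested, from 0.02 to -0.07. With the adjusted p alone, Lck (-0.54), Lat (-0.55) and Themis (-0.49) counted as lower, which made 7 lower genes of the 9, beside 27.2% of all genes. When a change of 2 times was needed, Lcp2 (-0.78) and Fyn (-0.71) were lost and 2 lower genes were left. With each library left out in turn, Lat ranged from -0.63 to -0.49 and Themis from -0.62 to -0.37. The coupling genes called higher numbered 2 with at least 10 counts in every library, 0 with library size alone, 6 with the adjusted p alone, 0 when 2 times was needed and 0 to 2 with a library left out. With that threshold of 2 times, the called relatives that were lower numbered 0, the coupling genes lower 5, the restraint genes higher 2 and lower 5, and all genes 1725 higher and 1040 lower. With the adjusted p alone, 3903 genes were lower. Same-numbered libraries had deviations that correlated at -0.00926 over 12733 genes, and the numbers are not stated to pair them. With a replicate block 4 of the 9 genes were lower and 1 higher, with Plcg1 at -1.83, Zap70 at -1.11 and Txk at 2.18, and no call of the 9 changed. The depth gave the 9 genes 74 to 8446 counts per library, and 2 libraries per genotype limit the precision.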
